A study of Mus musculus with 9 samples.

Results

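The lysosome was followed through 49 genes in mouse peritoneal macrophages with a changed serine in the transcription factor STAT6. They are 21 luminal hydrolases, 2 precursor proteins (Psap and Grn), 9 membrane and lipid transfer proteins, 14 subunits and accessory proteins of the vacuolar proton pump (V-ATPase), and the 3 transcription factors Tfeb, Tfe3 and Mitf. They were chosen by function, without the cathepsins, and with earlier results of these data known. They were found by Ensembl gene ID among the 55401 IDs of the count table. All 49 passed the filter on low counts, which kept 13501 genes.

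The macrophages were primary cells drawn into the peritoneum with thioglycollate, grown in DMEM containing 10% fetal bovine serum and collected soon after adherence, and their poly(A) RNA was sequenced. Wild type cells (WT) were compared with cells homozygous for Stat6 S807A (SA), in which serine 807 is replaced by alanine, and with cells homozygous for Stat6 S807E (SE), in which it is replaced by glutamate. There were 3 libraries per genotype, and elicitation, adherence and medium were common to all of them. The labels give neither the sex nor the age of the mice and do not say that the libraries came from separate animals, so the p-values measure the spread between these libraries, which may be technical.

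Lysosomes are acidified by the V-ATPase, a rotary pump whose cytosolic V1 sector burns ATP and whose membrane V0 sector carries protons into the lumen. The acid pH activates hydrolases that take apart glycans, lipids, sulfated polymers and proteins, and transporters and lipid transfer proteins in the limiting membrane export the products. In macrophages this system digests engulfed cells and microbes, and TFEB, TFE3 and MITF (the MiT/TFE factors) bind E-box sequences upstream of many lysosomal genes.

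The upstream sequences of 4 lysosomal genes are shown because they hold the core E-box CACGTG, the centre of the elements through which MiT/TFE factors act. A RefSeq promoter entry (GRCm38.p6, from 250 bases before to 50 bases after a start site) was found for 41 of the 49 genes; Npc1, Galns, Asah1, Atp6v0d2, Atp6v1b2, Atp6v1c1, Atp6v1g1 and Atp6v1h had none. The 250 bases before the start site are printed 5′ to 3′ on the gene's strand, and capitals mark CACGTG or, where present, the longer palindromes TCACGTGA and GTCACGTGAC that contain it.
Lamp1, chr8:13158911-13159160, plus strand: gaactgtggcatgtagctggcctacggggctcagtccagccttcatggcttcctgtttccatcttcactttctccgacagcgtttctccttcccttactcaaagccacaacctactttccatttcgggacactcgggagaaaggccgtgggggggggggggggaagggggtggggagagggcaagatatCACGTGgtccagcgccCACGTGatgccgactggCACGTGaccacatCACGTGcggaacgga
Gla, chrX:134601006-134601255, minus strand: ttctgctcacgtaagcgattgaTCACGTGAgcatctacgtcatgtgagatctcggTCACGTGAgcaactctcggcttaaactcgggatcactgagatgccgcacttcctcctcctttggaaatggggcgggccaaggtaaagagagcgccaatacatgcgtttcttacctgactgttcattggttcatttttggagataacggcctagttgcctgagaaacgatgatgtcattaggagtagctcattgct
Gaa, chr11:119267713-119267962, plus strand: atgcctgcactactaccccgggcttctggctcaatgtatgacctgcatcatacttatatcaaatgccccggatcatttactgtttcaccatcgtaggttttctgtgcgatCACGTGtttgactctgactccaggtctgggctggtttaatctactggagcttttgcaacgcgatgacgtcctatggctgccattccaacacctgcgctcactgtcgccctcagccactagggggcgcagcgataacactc
Cln3, chr7:126583237-126583486, minus strand: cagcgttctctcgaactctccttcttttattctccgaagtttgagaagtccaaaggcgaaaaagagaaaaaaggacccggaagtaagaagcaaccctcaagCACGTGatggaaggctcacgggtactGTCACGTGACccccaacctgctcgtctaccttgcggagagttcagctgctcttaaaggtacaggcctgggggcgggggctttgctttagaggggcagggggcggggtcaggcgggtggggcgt

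Lamp1 held 4 copies of CACGTG, Gla held 2 copies in the form TCACGTGA, Gaa held 1 copy, and Cln3 held 1 copy beside the longest form. Cln3 has another promoter entry, at chr7:126585768-126586067, without CACGTG. A gene was counted below if any of its entries held the motif, and Lgmn also has an entry without it. Over both strands and the whole 300-base window, CACGTG was found in 12 of the 41 lysosomal genes, which is 29.3%, against 11.9% of the tested genes with a promoter entry. The other 8 genes with it were Arsa, Atp6v0b, Atp6v0d1, Atp6v1a, Lgmn, Mcoln1, Naglu and Sgsh. TCACGTGA was found in 5 of the 41 genes (12.2%, against 2.23% of tested genes) and GTCACGTGAC in Cln3 alone. The spaced palindrome TTCNNNNGAA, bound by STAT6 among other STAT proteins, was found in 2 of the 41 genes, which is 4.88%, against 6.71% of tested genes. These are letter matches in one window per start site, not measured binding sites.

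Library totals ran from 17286617 to 24618608 counts, and every lysosomal gene had at least 414 counts in every library. Levels are given as CPM, counts scaled by TMM to a common library size. Levels of different genes are compared per kilobase (kb) of exon, except for ranks among tested genes and shares of summed levels, which use CPM. Stat6 lay at 187 to 201 CPM in WT, 195 to 200 CPM in SA and 284 to 312 CPM in SE, and a single-codon change cannot be checked from gene counts. It was higher in SE than in WT by 1.51-fold (edgeR adjusted p = 6.27e-06) and than in SA by 1.49-fold (edgeR adjusted p = 5.15e-06). In comparisons with SE the residue change and the Stat6 RNA level therefore cannot be told apart. All 8 macrophage markers were detected, with summed levels of 17256 to 22079 CPM in WT, 17414 to 18101 CPM in SA and 17017 to 19708 CPM in SE. Of the 8, 1 was higher in SA than in WT (Cd14), 3 were lower in SE than in WT (Cd14, Fcgr1 and Mertk), where all 8 estimates were negative at a median log2 change of -0.21, and 2 were lower in SE than in SA. Monocyte and small peritoneal macrophage markers summed to 114 to 118 CPM in WT, 143 to 161 CPM in SA and 125 to 142 CPM in SE. Of the 3 tested genes on that list, Fn1 was higher in both mutants than in WT and Ccr2 was lower in SE than in WT, and both were lower in SE than in SA. Mesothelial and fibroblast markers moved with genotype: 5 of 6 tested genes on that list were higher in SA than in WT, their list summed to 758 to 817 CPM in WT, 877 to 929 CPM in SA and 721 to 821 CPM in SE, and its markers Msln and Krt19 had 0 counts throughout. Nearly all of these sums came from Gsn, which passed no comparison, while the median log2 change of the 6 genes in SA against WT was 3.31. The collagen gene Col1a1 had 22 to 36 counts in WT, 368 to 420 in SA and 60 to 95 in SE. Of the same 6 genes, 2 were higher in SE than in WT and 5 were lower in SE than in SA. The neutrophil list stayed at or below 3.14 CPM in every library, with Ly6g and Retnlg at 0. Resident large peritoneal macrophage markers summed to 33.8 to 40.5 CPM in WT, 25.6 to 29.1 CPM in SA and 24.8 to 28.7 CPM in SE. Of the 2 tested, Fabp7 was lower in SA (log2 change -0.61) and SE (-0.75) than in WT. Icam2 had positive estimates (0.23 and 0.36) and passed no comparison. Of 2 tested eosinophil, mast cell and basophil markers, 1 was lower in SE than in SA. The part of these marker differences in the results below was not tested.

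Libraries WT2 and SE3 stood apart from the others of their genotype. On the third principal component of all tested genes they lay at one end, at -16.2 and -17.1, and WT1 and SE2 lay at the other, at 13.3 and 14.9. Of the 49 genes, 25 had their highest level of the genotype in both WT2 and SE3, against 24.96% of all tested genes, and 13 had their lowest level in both, against 23.35%. Sgsh, the sulfamidase of heparan sulfate breakdown, was 0.35 higher on the log2 CPM scale in WT2 than in the mean of WT1 and WT3, and 0.36 higher in SE3 than in the mean of SE1 and SE2. Gaa, Mcoln1, Grn, Psap and Cd68 lay on the same side, whereas Atp6v0d2, Atp6v1g1, Atp6ap2, Ids and Mitf lay on the other. The labels give no batch that joins these libraries, so the counts of called genes are given with and without them.

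**Figure D1:**
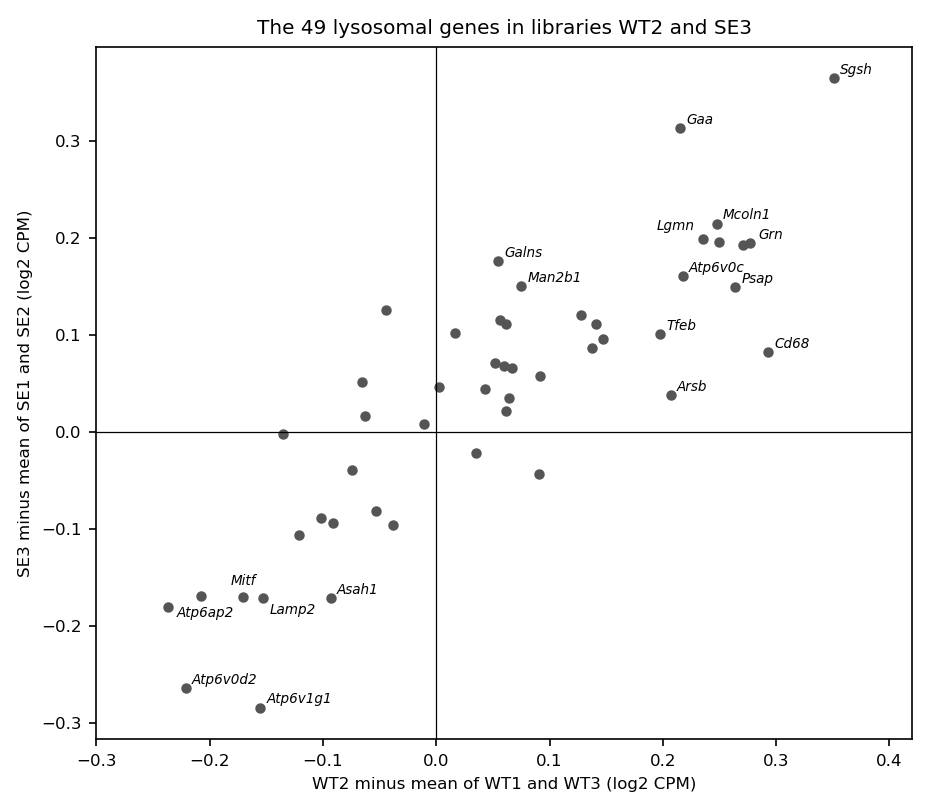
Each point is 1 of the 49 lysosomal genes, placed by its level in WT2 minus the mean of WT1 and WT3 (x axis, log2 CPM) and its level in SE3 minus the mean of SE1 and SE2 (y axis, log2 CPM). Sgsh and Gaa sit at the upper right and Atp6v0d2 and Atp6v1g1 at the lower left, and 43 of the 49 genes have the same sign on both axes.

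Lysosomal genes had high CPM in all 3 genotypes. By mean CPM, 32 of the 49 ranked within the top 10% of tested genes and 22 within the top 5%. These ranks are not corrected for exon length. Summed over the 49 genes, the level was 43857 ± 2935 CPM in WT, 40290 ± 1369 CPM in SA and 45508 ± 1763 CPM in SE (SD, n = 3 libraries each). These sums are 4.39%, 4.03% and 4.55% of the TMM-scaled library size, not of the raw counts. The TMM factors ran from 0.973 to 1.018 in WT, 1.006 to 1.026 in SA and 0.967 to 0.995 in SE. Psap made up 37.6%, 35.5% and 38.7% of the summed levels in WT, SA and SE. Per kb of exon Psap was also the highest, at 6029 CPM per kb in WT, followed by Cd68 at 1485 CPM per kb, while the sulfatase Arsb was the lowest of the 49. Exon length here is the union of all annotated exons, which can be longer than the transcript expressed, so these ranks depend on the annotation. The isoform shares given per kb below carry the same limit.

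Each genotype was compared with each other one over all 13501 tested genes by the quasi-likelihood test of edgeR, and calls required an adjusted p (Benjamini-Hochberg) under 0.05. Against WT, 3 lysosomal genes fell in SA (Atp6v0d2, Galns and Gla), which is 6.12% of the 49, beside 4.07% of all tested genes called in either direction, 2.1% lower and 1.97% higher. The median log2 change of the 49 genes was -0.08, beside 0.00 for all tested genes, and 10 of them had a positive estimate, beside 50.4% of all tested genes. Between SE and WT, Atp6v0a1 rose and Ppt1 fell, which is 4.08% of the 49 beside 5.04% of all tested genes (2.35% higher and 2.69% lower), so the share called lay near the background. The median log2 change was 0.02.

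The mutants differed from each other at more lysosomal genes. Psap, Gla, Gaa, Galns, Lgmn, Atp6v0a1, Atp6v0d2, Atp6v1c1 and Atp6v1h were higher in SE than in SA, which is 9 of 49 (18.4%), beside 10.2% of all tested genes called in either direction, 4.77% higher and 5.42% lower. Their changes ran from 1.15-fold to 1.39-fold, and the other 40 genes did not pass the test. The median log2 change of the 49 was 0.08, beside 0.00 for all tested genes, and 39 had a positive estimate, beside 49.4%. In 20 of the 49 genes all 3 SE libraries lay above all 3 SA libraries, beside 14.2% of all tested genes. The 3 comparisons share libraries, so their results are not independent of each other.

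**Figure D2:**
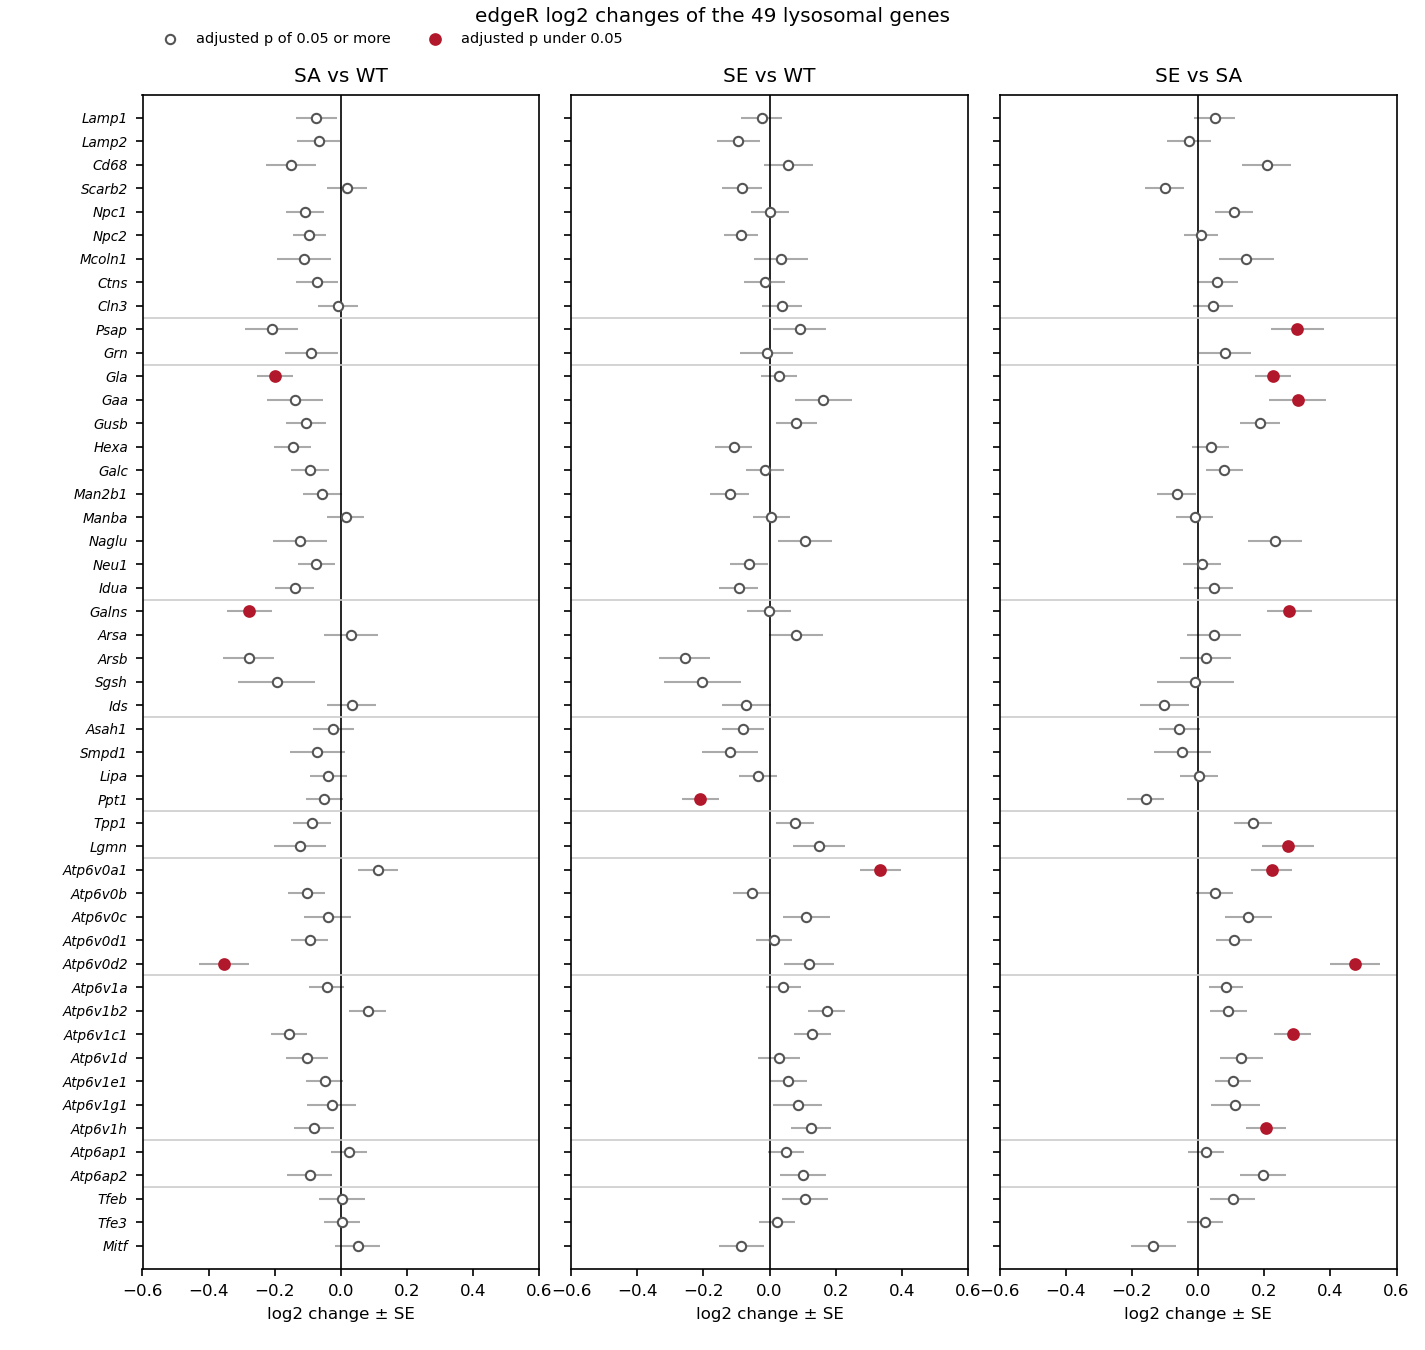
Log2 change of each of the 49 genes (points) with its standard error (lines) from edgeR in the comparisons SA against WT, SE against WT and SE against SA, with filled points where the adjusted p was under 0.05 and grey lines between functional classes. The filled points are 3 on the negative side for SA against WT, 1 on each side for SE against WT, and 9 on the positive side for SE against SA.

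These counts depend on single libraries. For SA against WT 1 gene was called without WT3, 0 without SA1, 1 without SA2, 0 without SA3 and 5 without WT2 and SE3 together. Without SA1, and likewise without SA3, 5 of the 49 had an unadjusted edgeR p under 0.05. Over all tested genes the calls were 549 with all libraries, 297 without WT3, 308 without SA1, 377 without SA2 and 388 without SA3. They were 903 without WT2 and SE3 together. For SE against WT 1 gene, Atp6v0a1, was called whichever library was left out. The calls over all tested genes were then 292 (without WT3) to 1097 (without WT2), beside 680 with all libraries. For SE against SA 5 were called without WT3, 4 without SA1, 2 without SA2, 5 without SE1, 5 without SE3 and 14 without WT2 and SE3 together. Those 14 were the 9 above, Atp6ap2, Atp6v1g1, Cd68 and Gusb, also higher in SE, and Ppt1, lower in SE. All tested genes together had 1376 calls for SE against SA, or 1121 without WT3, 836 without SA1 and 781 without SA2. They had 811 without SE1, 1159 without SE3 and 1903 without WT2 and SE3 together. With scaling by library totals alone, 33.8% of the genes called over the whole table for SE against SA were higher, against 46.8% with TMM, and the lysosomal calls were 8 higher and 1 lower (Ppt1) in place of 9 higher. In these bulk samples fewer cells of a type and less RNA per cell cannot be told apart.

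**Figure D3:**
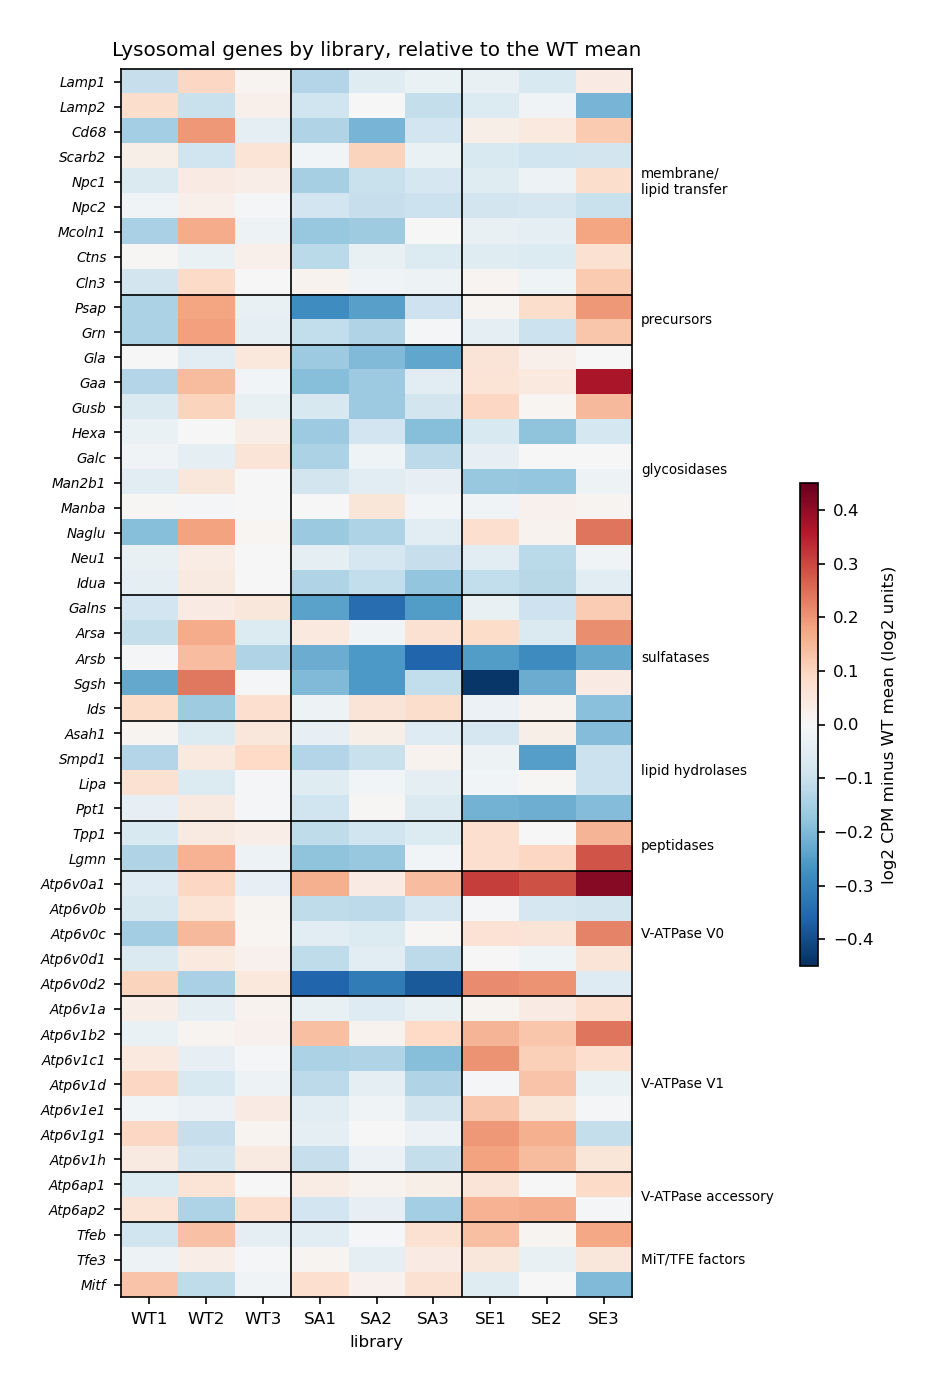
Rows are the 49 lysosomal genes grouped by function, columns the 9 libraries, and colour the log2 CPM minus the WT mean of that gene (red higher, blue lower). Atp6v0d2 and Galns are blue in all 3 SA libraries, Atp6v0a1 is red in all 3 SE libraries, and WT2 and SE3 differ in colour from their neighbours in many rows.

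Of the 14 V-ATPase genes, 4 rose in SE against SA (Atp6v0a1, Atp6v0d2, Atp6v1c1 and Atp6v1h), beside 4.77% of all tested genes. The median log2 change was 0.12, and all 14 estimates were positive, or 13 with scaling by library totals alone. In 10 of the 14 the SE libraries all lay above the SA libraries, beside 14.2% of all tested genes. Summed over the 14, the level was 6961 ± 72.7 CPM in WT, 6832 ± 96.2 CPM in SA and 7678 ± 81.8 CPM in SE (SD, n = 3 libraries each). Against WT, Atp6v0d2 fell in SA with a class median of -0.07, and Atp6v0a1 rose in SE with a class median of 0.09.

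In the V0 sector, Atp6v0d2 had the largest estimates in SA against WT and in SE against SA. It encodes the d2 form of the stalk subunit that links the membrane ring to V1, a form abundant in osteoclasts and macrophages (ENSMUSG00000028238, chr4:19876841-19922605 in mm10). Its levels were 787, 664 and 760 CPM in WT1 to WT3, 574, 590 and 565 CPM in SA1 to SA3, and 851, 846 and 707 CPM in SE1 to SE3. All SA libraries lay below every WT and SE library, and WT2 and SE3 were the lowest of their genotypes. Atp6v0d2 was lower in SA than in WT by 1.28-fold (log2 change -0.35 ± 0.08 SE, edgeR adjusted p = 0.0106). It was higher in SE than in SA by 1.39-fold (log2 change 0.47 ± 0.08 SE, edgeR adjusted p = 0.000564), and between SE and WT the edgeR adjusted p was 0.436. The fall in SA missed the threshold without WT3 (adjusted p = 0.0857), without SA1 (0.0747), without SA3 (0.0646) and with library totals (0.0577), while the difference between the mutants passed in all 18 alternative analyses, with adjusted p of at most 0.00741.

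Atp6v0d1, the widely expressed d1 form, lay between 207 and 234 CPM in the 9 libraries and passed no comparison, with its SE libraries all above its SA libraries. Per kb of exon, d2 was the larger share of the d1 and d2 sum in every library. That share was 68.3% ± 2.70 in WT, 64.4% ± 0.213 in SA and 69.9% ± 2.83 in SE (SD, n = 3 libraries each). The lowest WT value, 65.4% in WT2, and the lowest SE value, 66.6% in SE3, were both above the highest SA value of 64.6%.

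Atp6v0a1 encodes the a1 form of the large membrane subunit that forms the proton path (ENSMUSG00000019302, chr11:101009452-101063719). It lay at 1326, 1473 and 1344 CPM in WT, 1543, 1416 and 1518 CPM in SA, and 1712, 1681 and 1832 CPM in SE. The 3 SE libraries were above all others, and the WT and SA libraries overlapped. Atp6v0a1 was higher in SE than in WT by 1.26-fold (log2 change 0.33 ± 0.06 SE, edgeR adjusted p = 0.00365), and this held in all 18 alternatives with adjusted p of at most 0.0387. It was higher in SE than in SA by 1.17-fold (edgeR adjusted p = 0.0286), a call that was lost without WT3, SA1, SA2, SA3, SE1 or SE3 (adjusted p from 0.0555 to 0.158) and with a replicate block. Between SA and WT the edgeR adjusted p was 0.482, and without WT2 and SE3 together it was 0.0467 with SA higher. The proteolipid ring genes Atp6v0c (555 to 721 CPM) and Atp6v0b (292 to 331 CPM) passed no comparison. A processed pseudogene, Atp6v0c-ps2, had 108 to 139 counts per library, so reads shared between copies leave Atp6v0c uncertain to that extent.

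In the V1 sector, Atp6v1c1 and Atp6v1h rose in SE against SA. Atp6v1c1, the C subunit that holds V1 to V0 during assembly (ENSMUSG00000022295, chr15:38661933-38692446), lay at 257, 243 and 247 CPM in WT, 226, 226 and 218 CPM in SA, and 287, 268 and 262 CPM in SE. The 3 genotypes did not overlap, with SA lowest and SE highest. The difference between SE and SA was 1.22-fold (log2 change 0.29 ± 0.06 SE, edgeR adjusted p = 0.00292) and passed in all 18 alternatives, with adjusted p of at most 0.0253. Against WT neither mutant passed (edgeR adjusted p = 0.164 for SA and 0.219 for SE), though without WT2 and SE3 together the adjusted p for SA was 0.0350 with SA lower.

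Atp6v1h, the H subunit that keeps free V1 from hydrolysing ATP (ENSMUSG00000033793, chr1:5070018-5162529), lay at 116, 107 and 116 CPM in WT, 105, 111 and 105 CPM in SA, and 128, 125 and 117 CPM in SE. SE lay above the other genotypes in every library, and WT and SA overlapped. SE was 1.15-fold higher than SA (log2 change 0.21 ± 0.06 SE, edgeR adjusted p = 0.0384), and 10 of 18 alternatives ended the call, among them leaving out WT3, SA1, SA2, SA3, SE1 or SE2, with adjusted p up to 0.161. The other V1 genes were the catalytic A subunit Atp6v1a, the B subunit Atp6v1b2 and the rotor and stator subunits Atp6v1d, Atp6v1e1 and Atp6v1g1. None of the 5 passed a comparison with all 9 libraries, and Atp6v1g1 passed in SE against SA without WT2 and SE3 together. The smallest edgeR adjusted p among them was 0.0920, for Atp6v1b2 in SE against WT at a log2 change of 0.17.

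The 2 accessory proteins passed no comparison with all 9 libraries. Atp6ap1, an assembly factor that sits in the V0 ring, lay at 545, 593 and 569 CPM in WT, 582, 575 and 579 CPM in SA, and 592, 568 and 604 CPM in SE, with overlapping groups and edgeR adjusted p of 0.704 or more. Atp6ap2, the prorenin receptor and pump partner, lay at 289, 252 and 292 CPM in WT, 261, 270 and 249 CPM in SA, and 308, 310 and 275 CPM in SE. SE lay above SA without overlap, and the edgeR adjusted p of that difference was 0.0832, or 0.000825 without WT2 and SE3 together, and it also passed without WT2 and without SE3 alone.

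**Figure D4:**
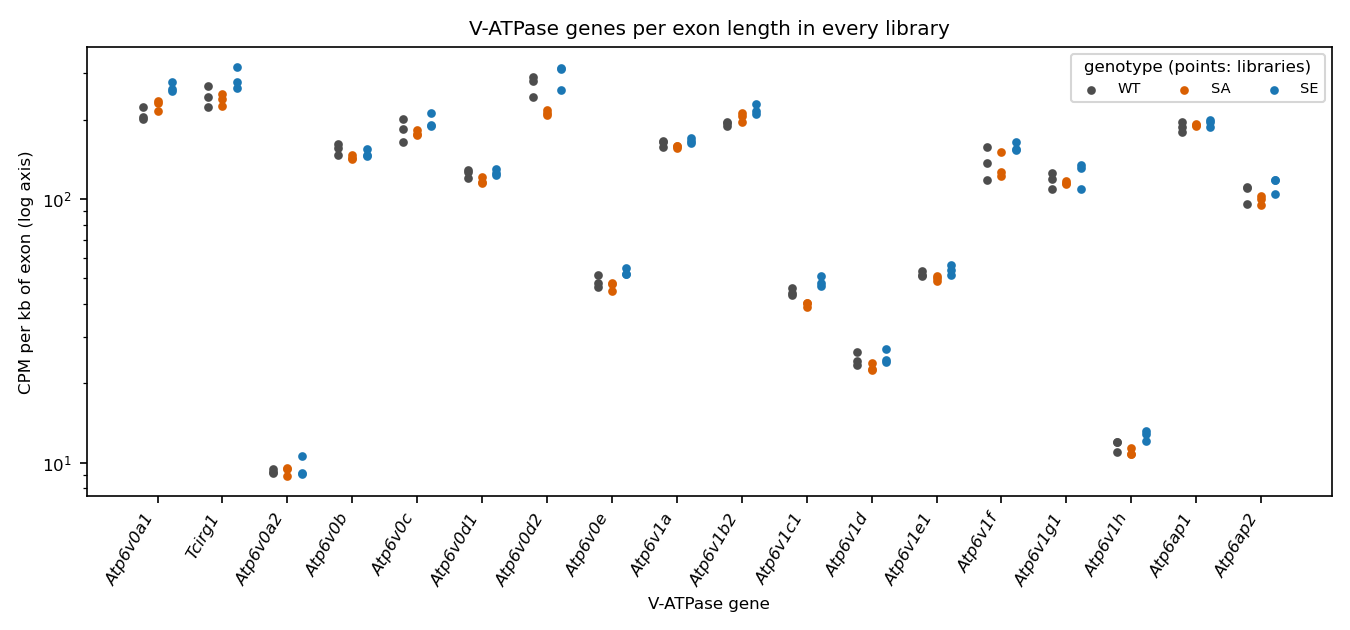
Points are single libraries of 18 V-ATPase genes, with CPM per kb of exon on a log axis and colour for genotype. Atp6v0d2 shows the SA libraries below the others and Atp6v0a1 and Atp6v1c1 show the SE libraries above the others, while the isoforms of 1 subunit can be compared in height.

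Other V-ATPase genes followed in part. Of 12 further subunit genes 5 were tested, and Tcirg1, the a3 form of the large membrane subunit found in lysosomes and osteoclasts, rose in SE against SA. It lay at 1028, 1235 and 1125 CPM in WT, 1102, 1036 and 1153 CPM in SA, and 1284, 1219 and 1456 CPM in SE, and SE was 1.2-fold higher than SA (edgeR adjusted p = 0.0335). That call was lost without WT3, SA1, SA2, SA3, SE1 or SE3, with adjusted p from 0.0544 to 0.171. Per kb, Atp6v0a1 held 45.3% ± 1.06 of the sum of a1, a2 and a3 in WT, 47.9% ± 0.754 in SA and 47.3% ± 1.14 in SE (SD, n = 3 libraries each), with Tcirg1 at 52.7%, 50.1% and 51.0%.

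Of 11 tested genes for V-ATPase assembly and regulation, Dmxl2, a rabconnectin that helps join V1 to V0, fell in both mutants. Its level was 178 ± 8.13 CPM in WT, 127 ± 4.73 CPM in SA and 134 ± 12.9 CPM in SE (SD, n = 3 libraries each). The falls against WT were 1.41-fold in SA (edgeR adjusted p = 0.000249) and 1.33-fold in SE (adjusted p = 0.00168), and both held in all 18 alternatives. Ncoa7, a TLDc-domain protein that binds the pump, was lower in SE than in SA by 1.26-fold (edgeR adjusted p = 0.00651, held in all 18) and 1.21-fold lower than in WT (adjusted p = 0.0423), a call lost without WT1, WT3, SA1, SA2, SA3, SE1 or SE3 (adjusted p up to 0.160).

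Among the 21 luminal hydrolases, 2 fell in SA against WT (Galns and Gla), 1 fell in SE against WT (Ppt1), and 4 rose in SE against SA (Gla, Gaa, Galns and Lgmn), beside 2.1%, 2.69% and 4.77% of all tested genes in those directions. The class medians were -0.09, -0.04 and 0.04 on the log2 scale. In SA against WT 18 of the 21 estimates were negative and in 7 of the 21 the SA libraries all lay below the WT libraries, beside 9.71% of all tested genes. In SE against WT 13 of the 21 estimates were negative. In 4 of the 21 the SE libraries all lay below the WT libraries, beside 1405 of the 13501 tested genes.

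Of the 10 glycosidases, Gla and Gaa passed a comparison. Gla encodes alpha-galactosidase A, the enzyme lacking in Fabry disease (ENSMUSG00000031266, chrX:134588149-134601125), and its promoter sequence is the one above with TCACGTGA at both sites. It lay at 186, 179 and 192 CPM in WT, 165, 162 and 158 CPM in SA, and 193, 189 and 186 CPM in SE. SA lay below every other library, and WT and SE overlapped. Gla was lower in SA than in WT by 1.15-fold (log2 change -0.20 ± 0.05 SE, edgeR adjusted p = 0.0482), and 12 of 18 alternatives ended that call, among them leaving out WT1, WT3, SA1, SA2, SA3, SE1 or SE2, with adjusted p up to 0.275. It was higher in SE than in SA by 1.17-fold (log2 change 0.23 ± 0.05 SE, edgeR adjusted p = 0.0126), a call lost without SA2 (adjusted p = 0.0585), SA3 (0.0735) or SE1 (0.0604).

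Gaa encodes acid alpha-glucosidase, which breaks down lysosomal glycogen (ENSMUSG00000025579, chr11:119267887-119285454). It lay at 157, 190 and 170 CPM in WT, 150, 153 and 166 CPM in SA, and 179, 177 and 222 CPM in SE. SE3 stood above all other libraries, WT2 was the highest WT library, and SE did not overlap SA. SE was 1.23-fold higher than SA (log2 change 0.30 ± 0.09 SE, edgeR adjusted p = 0.0330), a call lost without WT3 (adjusted p = 0.0567), SA1 (0.142), SA2 (0.129) or SE3 (0.131). Gusb, Hexa, Galc, Man2b1, Manba, Naglu, Neu1 and Idua passed no comparison. The smallest edgeR adjusted p among these 8 was 0.0607, for beta-glucuronidase (Gusb) in SE against SA, which passed in 7 of 18 alternatives, among them without WT2 and SE3 together, and all SE libraries lay above all SA libraries for Gusb and for Naglu, an enzyme of heparan sulfate breakdown.

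Of the 5 sulfatases, Galns changed. It encodes N-acetylgalactosamine-6-sulfatase, which acts on keratan and chondroitin sulfate (ENSMUSG00000015027, chr8:122578242-122611463). Galns lay at 83.7, 91.2 and 92.1 CPM in WT, 75.2, 70.1 and 74.7 CPM in SA, and 86.9, 83.3 and 96.2 CPM in SE. SA lay below both other genotypes in every library, while WT and SE overlapped. It was lower in SA than in WT by 1.21-fold (log2 change -0.28 ± 0.07 SE, edgeR adjusted p = 0.0259), a call lost without WT3, SA1, SA2 or SA3 (adjusted p from 0.0707 to 0.1595). It was higher in SE than in SA by 1.21-fold (log2 change 0.28 ± 0.07 SE, edgeR adjusted p = 0.0152), a call lost without SA2 (adjusted p = 0.0924) or SE3 (0.0586).

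Arsb, arylsulfatase B of dermatan sulfate breakdown, was the gene nearest the threshold among those not called. It lay at 39.9, 44.1 and 36.5 CPM in WT, 34.3, 33.5 and 31.3 CPM in SA, and 33.6, 32.9 and 34.2 CPM in SE, so all WT libraries were above all mutant libraries. The edgeR adjusted p was 0.0511 for SA against WT and 0.0658 for SE against WT. The long noncoding gene Gm26527 overlaps 32.3% of the exon bases of Arsb on the opposite strand, and the strand setting of the counting is not given in the sources used here. Arsa, Sgsh and Ids passed no comparison.

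The 4 lipid hydrolases had negative estimates in both mutants against WT. Ppt1, palmitoyl-protein thioesterase, which removes fatty acids from proteins (ENSMUSG00000028657, chr4:122836242-122859175), lay at 98.3, 104 and 100 CPM in WT, 94.7, 101 and 96.2 CPM in SA, and 87.0, 86.5 and 88.0 CPM in SE. SE lay below every other library, and WT and SA overlapped. Ppt1 was lower in SE than in WT by 1.16-fold (log2 change -0.21 ± 0.06 SE, edgeR adjusted p = 0.0429), and the call was lost whichever library was left out (adjusted p from 0.0543 to 0.1505). Between SE and SA the edgeR adjusted p was 0.0931, and Ppt1 passed as lower in SE with library totals and without WT2 and SE3 together. Cap1, on the opposite strand, overlaps 3.51% of its exon bases and had a mean of 704 CPM, so reads in that stretch are uncertain. Lipa, acid lipase, lay between 2094 and 2348 CPM, and Asah1 (acid ceramidase) and Smpd1 (acid sphingomyelinase) likewise passed no comparison.

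Of the 2 peptidases, Lgmn encodes legumain, an asparaginyl endopeptidase that processes cathepsins (ENSMUSG00000021190, chr12:102394084-102439813). It lay at 1366, 1671 and 1475 CPM in WT, 1324, 1332 and 1487 CPM in SA, and 1578, 1600 and 1824 CPM in SE. SE did not overlap SA, and WT2 and SE3 were the highest of their genotypes. SE was 1.21-fold higher than SA (log2 change 0.27 ± 0.08 SE, edgeR adjusted p = 0.0346), a call lost without WT3, SA1, SA2, SE1 or SE3 (adjusted p from 0.0556 to 0.160) and with a filter at 5 CPM. Tpp1, tripeptidyl peptidase 1, lay between 404 and 486 CPM, with SE above SA in every library and an edgeR adjusted p of 0.0792.

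Psap, the most abundant of the 49, encodes prosaposin, which is cut into the saposins that present lipids to the hydrolases (ENSMUSG00000004207, chr10:60277627-60302597). It lay at 14909, 18611 and 16111 CPM in WT, 13566, 13905 and 15446 CPM in SA, and 16601, 17403 and 18850 CPM in SE. All SE libraries were above all SA libraries, and WT overlapped both mutants. SE was 1.23-fold higher than SA (log2 change 0.30 ± 0.08 SE, edgeR adjusted p = 0.0251), a call lost without SA1 (adjusted p = 0.1385), SA2 (0.117), SE2 (0.0518) or SE3 (0.0737). Against WT the edgeR adjusted p was 0.216 for SA and 0.614 for SE. Grn, progranulin, lay between 2877 and 3606 CPM and passed no comparison.

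**Figure D5:**
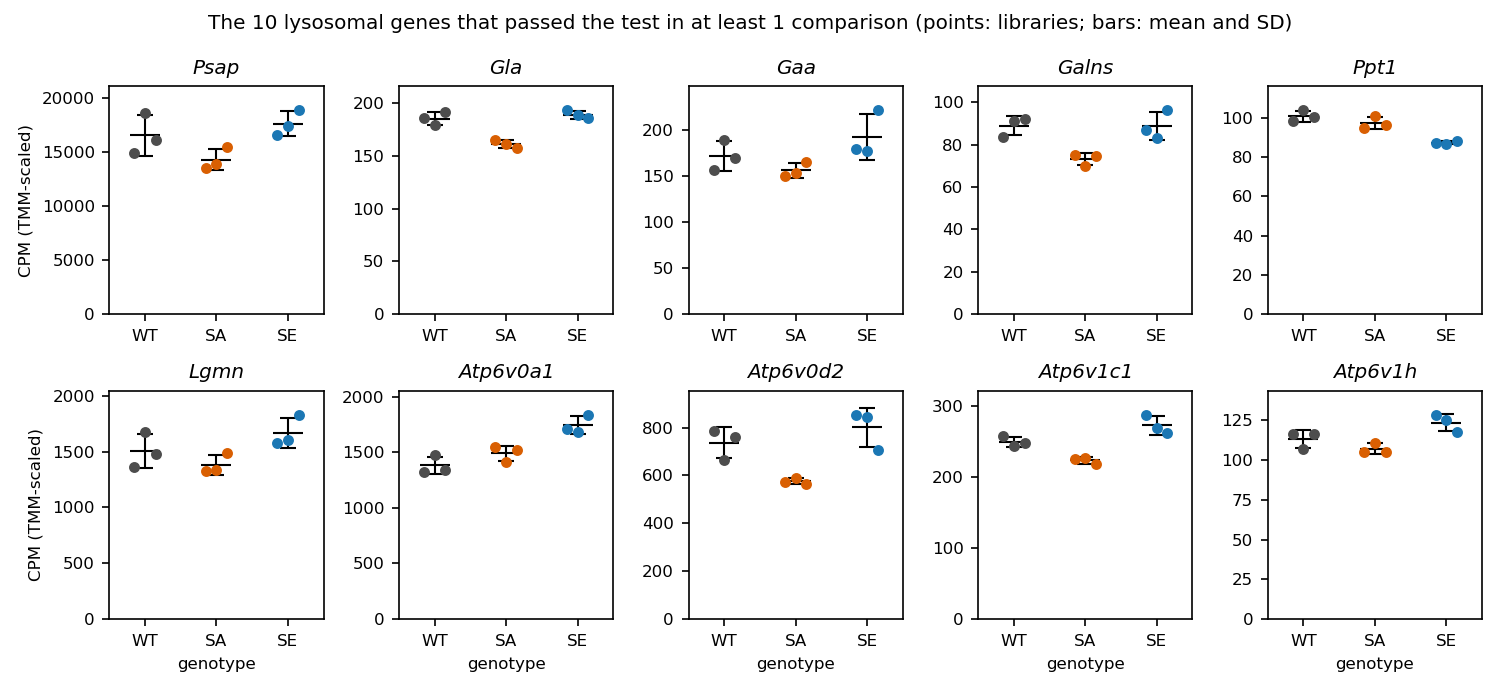
CPM of the 10 lysosomal genes that passed at least 1 comparison, with points for libraries and bars for the mean and SD of each genotype (n = 3 libraries), each axis starting at 0. SE points lie above SA points in every panel except Ppt1, where SE lies lowest.

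The 9 membrane and lipid transfer proteins passed no comparison. Lamp1, an abundant glycoprotein of the lysosomal membrane (ENSMUSG00000031447, chr8:13159161-13175338), lay at 2228, 2553 and 2416 CPM in WT, 2184, 2304 and 2348 CPM in SA, and 2339, 2286 and 2456 CPM in SE, and all groups overlapped. The 95% interval of its log2 change ran from -0.21 to 0.06 for SA against WT and from -0.15 to 0.11 for SE against WT. Cd68, a heavily glycosylated LAMP family protein of macrophages (ENSMUSG00000018774, chr11:69664213-69666153), lay at 1670, 2126 and 1803 CPM in WT, 1690, 1604 and 1751 CPM in SA, and 1892, 1916 and 2016 CPM in SE. SE lay above SA without overlap at an edgeR adjusted p of 0.0966, and WT2 was the highest library of all. That difference passed without WT1, without WT2, without WT2 and SE3 together, without the filter on low counts, and in a fit of the 2 genotypes alone.

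Lamp2, the LAMP protein of chaperone-mediated autophagy, lay between 594 and 725 CPM, and Scarb2, the receptor that carries glucocerebrosidase to the lysosome, between 133 and 152 CPM. Npc1 and Npc2, which hand cholesterol out of the lysosome, lay between 462 and 541 CPM and between 1272 and 1389 CPM. The SA libraries of Npc1, Npc2 and Ctns (the cystine exporter) were all below the WT libraries, at edgeR adjusted p of 0.445, 0.463 and 0.729. The SE libraries of Npc2 were likewise all below WT (edgeR adjusted p = 0.393). Against SA, the SE libraries were all lower for Scarb2 (edgeR adjusted p = 0.342) and all higher for Npc1 (0.270). The calcium channel gene Mcoln1 (114 to 145 CPM) and Cln3, a membrane protein lacking in juvenile Batten disease (140 to 161 CPM), overlapped between all genotypes.

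The MiT/TFE factors themselves passed no comparison. Tfeb, the best studied regulator of lysosomal genes, lay at 118, 137 and 122 CPM in WT, 121, 125 and 132 CPM in SA, and 138, 126 and 141 CPM in SE. All genotypes overlapped, and the 95% interval of the log2 change ran from -0.14 to 0.15 for SA against WT and from -0.04 to 0.25 for SE against WT (edgeR adjusted p = 0.995 and 0.443). Tfe3, its close relative, lay at 213, 221 and 215 CPM in WT, 218, 210 and 222 CPM in SA, and 224, 211 and 224 CPM in SE, with edgeR adjusted p of 0.875 or more.

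Mitf, the family member best known from melanocytes and osteoclasts, lay at 211, 178 and 191 CPM in WT, 203, 196 and 202 CPM in SA, and 186, 193 and 168 CPM in SE. SE lay below SA without overlap, at a log2 change of -0.14 and an edgeR adjusted p of 0.251. The fourth family member, Tfec, is expressed mainly in macrophages and was 1.27-fold higher in SE (56.0 ± 1.33 CPM) than in SA (44.1 ± 6.86 CPM; SD, n = 3 libraries each; edgeR adjusted p = 0.0173). That call was lost without SA1, SA3 or SE1 (adjusted p up to 0.0998) and with library totals. Transcript levels do not report whether these factors are in the nucleus, where they act.

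Further genes of the pathway, from lists written beside the 49, were counted in the same fit, in which 4.07%, 5.04% and 10.2% of all tested genes were called for SA against WT, SE against WT and SE against SA. A list of 24 other genes held hydrolases and some further proteins, such as the oxidase Pcyox1 and the glycoprotein Glmp. Of these 24, 3 fell in SA against WT, 1 rose and 2 fell in SE against WT, and 2 rose and 2 fell in SE against SA. These are 12.5%, 12.5% and 16.7% of the list. Pcyox1, a prenylcysteine oxidase, fell in both mutants, by 1.23-fold in SA (edgeR adjusted p = 0.00333, held in all 18 alternatives) and 1.18-fold in SE (adjusted p = 0.0160, lost without WT3 at 0.0684 and without SE1 at 0.0899). Smpdl3a, a sphingomyelinase-like phosphodiesterase, also fell in both, by 1.17-fold in SA (edgeR adjusted p = 0.0138) and 1.18-fold in SE (adjusted p = 0.0122), calls lost without WT3, SA1 or SA3 (up to 0.112) and without WT3 or SE1 (up to 0.0921).

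Acp5, the tartrate-resistant acid phosphatase, was higher in SE than in WT by 1.29-fold (edgeR adjusted p = 0.0139, lost without WT1 at 0.0662 and without SE3 at 0.0538) and higher than in SA by 1.57-fold (adjusted p = 8.14e-05, held in all 18). Glmp, a lysosomal glycoprotein, was higher in SE than in SA by 1.14-fold (edgeR adjusted p = 0.0457), a call that 12 of 18 alternatives ended, among them leaving out any one of WT3, SA1, SA2, SA3, SE1, SE2 and SE3 (up to 0.209). Plbd1, a phospholipase B-like protein, was lower in SE than in SA by 1.6-fold (edgeR adjusted p = 0.00457, held in all 18) at 3.72 to 8.05 CPM.

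Of 29 other membrane proteins, 2 fell in SA against WT, 1 rose in SE against WT and 4 rose in SE against SA. These are 6.9%, 3.45% and 13.8% of them, near the shares of all tested genes. Among the 4 was the channel gene Tpcn2 at 1.2-fold (edgeR adjusted p = 0.0229, lost without SA1, SA2 or SE3 at up to 0.123). Tpcn2 was also higher in SE than in WT by 1.21-fold (edgeR adjusted p = 0.0265, lost without WT1, WT3 or SE3 at up to 0.129). The transporter genes Mfsd12 and Slc29a3 were higher in SE than in SA, by 1.25-fold and 1.18-fold (edgeR adjusted p = 0.0144, lost without SA1, SA2 or SE3 at up to 0.0820, and 0.0107, lost without SA1 at 0.0714). The fallen genes in SA were Slc11a1, which pumps metal ions out of phagosomes, at 1.19-fold (edgeR adjusted p = 0.0426, lost without any one of WT2, WT3, SA1, SA2, SA3 and SE1 at up to 0.192), and the sialic acid exporter Slc17a5 at 1.16-fold (adjusted p = 0.0473, lost without any one of WT1, WT2, WT3, SA1, SA2, SA3, SE1 and SE2 at up to 0.313). Slc11a1 had nearly the same log2 change against WT in SE (-0.23) as in SA (-0.25). The edgeR adjusted p in SE was 0.0525, and 7 of 18 alternatives called it. For Slc17a5 in SE against WT the log2 change was -0.10 (edgeR adjusted p = 0.397).

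Of 20 genes that sort enzymes to lysosomes, Sort1, the sortilin receptor, fell in both mutants. Its level was 126 ± 3.51 CPM in WT, 93.2 ± 7.07 CPM in SA and 89.5 ± 8.06 CPM in SE (SD, n = 3 libraries each), and neither mutant overlapped WT. The falls were 1.35-fold in SA (edgeR adjusted p = 0.00128) and 1.41-fold in SE (adjusted p = 0.000562), and both held in all 18 alternatives. Of 17 tested MiT/TFE and mTORC1 regulators, Fnip2, a partner of folliculin, fell 1.17-fold in SA (edgeR adjusted p = 0.0462, lost without WT1, WT3, SA1, SA2, SA3 or SE2 at up to 0.2555) and 1.19-fold in SE (adjusted p = 0.0216, lost without WT3 or SE1 at up to 0.140), and Tfec was the only other one called.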

How the data were processed

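The authors deposited raw read counts per Ensembl gene for the 9 libraries. Alignment to mm10 with HISAT2 2.1.0 and counting with featureCounts are named in the submitters' processing notes, while annotation release, strand setting and treatment of multi-mapping reads were not given in the sources used here. IDs were matched to GENCODE M21 for symbols, positions and exon length (55141 of 55401 IDs). Counts were fitted in edgeR 4.0.16 (R 4.3.3): filterByExpr with a minimum count of 10 and a minimum total of 15, TMM scaling, and a robust quasi-likelihood fit of genotype over all 9 libraries with 6 residual degrees of freedom. Tests were 2-sided, with Benjamini-Hochberg adjustment over 13501 genes and calls under 0.05. The code was checked on simulated counts. At these depths 3 counts equal 0.122 to 0.174 CPM, for counting error only.

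The 49 genes and all lists were chosen with earlier results of these data known. Values in every library are given for each gene called in any comparison, for Lamp1, Cd68, Tfeb, Tfe3, Mitf and Atp6v0d2, and for the 2 most abundant genes per kb of classes without a call; Arsb, Gusb, Tpp1 and other near misses were singled out after their values were seen. Other lists name up to 3 risen and 3 fallen genes per comparison with the largest change. Some genes that this rule names are not reported here. The 18 alternatives were DESeq2 1.42.0 size factors or its Wald test, library totals, no filter, a filter at a mean of 5 CPM, a replicate block, the compared genotypes alone, each library left out, and WT2 with SE3 or WT1 with SE2 left out.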

Additional observations from a re-analysis of the deposited data

How the results depend on the processing

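No called value changed sign under the 18 alternatives. For SA against WT the number of lysosomal genes called, 3, was 1 with library totals and 5 without WT2 and SE3 together, and leaving out 1 library gave 0 to 4. For SE against WT the number, 2, was 1 without the filter, 1 in the fit of the compared genotypes, 1 without WT1 and SE2 together, and 1 whichever library was left out. For SE against SA the number, 9, was 14 without WT2 and SE3 together, and leaving out 1 library gave 2 to 13. DESeq2's Wald test called 4, 3 and 10, beside 576, 766 and 1378 of all tested genes. Calls over all tested genes also moved with the settings above. For SE against WT they were 890 without the filter, 438 in the fit of the compared genotypes and 372 without WT1 and SE2 together. With library totals they were 533 for SA against WT. The median log2 change of the 49 genes in SA against WT was -0.0543 with library totals and ran from -0.10 to -0.06 with 1 library left out. In SE against WT it was -0.0032 without WT1 and SE2 together and ran from -0.0076 to 0.0376. In SE against SA it was 0.0356 with library totals and ran from 0.0629 to 0.0905. The median of all tested genes also moved with library totals. It went from 0.001 to 0.028 in SA against WT and from -0.003 to -0.048 in SE against SA. The cause of these shifts was not tested.

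Replicate numbers do not pair the libraries: deviations of same-numbered libraries from their genotype means correlated at -0.195 to 0.105 over genes, and not every library correlated best with its own number. With the replicate number as a block, 2 lysosomal genes were called for SA against WT, 1 for SE against WT and 7 for SE against SA. The same fit called 500, 568 and 1189 of all tested genes. With 3 libraries per genotype, most calls near the threshold rest on single libraries. The smallest called difference among the 49 genes was 1.15-fold.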

Other observations

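Genes tied to osteoclasts and macrophage giant cells, cells that secrete acid through the V-ATPase, were counted because Atp6v0d2 and Tcirg1 are used there. Of 12 such genes 10 were tested. Tcirg1 and Acp5 were already counted in lists above, and this list too was chosen with earlier results known. Its counts are therefore not separate evidence. In SE against SA, 5 were higher (Cdh1, Ocstamp, Acp5, Tcirg1 and Ctsk) and 1 lower (Dcstamp), beside 4.77% and 5.42% of all tested genes. The Ctsk call (edgeR adjusted p = 0.0232) was lost without SA1, SA2, SA3, SE1 or SE3 and with library totals (adjusted p up to 0.1185). The estimates there were 6 positive and 4 negative. Against WT, 3 were higher in SE (Cdh1, Ocstamp and Acp5) and 2 in SA (Dcstamp and Itgb3), beside 2.35% and 1.97% of all tested genes. In both comparisons with WT, 0 were lower. Ocstamp, a multipass membrane protein needed for osteoclast fusion, lay at 24.4, 23.7 and 21.7 CPM in WT, 31.3, 22.6 and 29.4 CPM in SA, and 50.7, 41.4 and 42.5 CPM in SE. SE was above WT by 1.93-fold (edgeR adjusted p = 5.43e-05) and above SA by 1.61-fold (adjusted p = 0.000429). Cdh1, the adhesion protein E-cadherin, which alternatively activated macrophages use for fusion, lay at 6.34 to 7.15 CPM in WT, 6.98 to 9.08 CPM in SA and 13.3 to 15.7 CPM in SE, and was higher in SE than in WT by 2.13-fold (edgeR adjusted p = 2.99e-05) and higher than in SA by 1.75-fold (adjusted p = 0.000189). These 4 differences passed in all 18 alternatives.

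Dcstamp, the fusion protein related to Ocstamp, differed in the other direction. It lay at 39.9, 32.3 and 35.6 CPM in WT, 49.8, 46.4 and 45.2 CPM in SA, and 34.9, 36.7 and 31.6 CPM in SE, so SA was above every other library. It was higher in SA than in WT by 1.31-fold (edgeR adjusted p = 0.0107, lost without WT3 at 0.0636 and without SA1 at 0.0825) and 1.37-fold lower in SE than in SA (adjusted p = 0.00187, held in all 18). Itgb3, an integrin chain of osteoclast adhesion, was higher in SA than in WT by 1.18-fold (edgeR adjusted p = 0.0471), a call lost without any one of WT1, WT2, WT3, SA1, SA2, SA3 and SE1 (adjusted p up to 0.212). Nfatc1, a transcription factor of osteoclast formation, lay between 61.0 and 70.3 CPM and passed no comparison (edgeR adjusted p of 0.424 or more).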
